A study of Mus musculus with 8 samples.

Results

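The genes described here are 10 genes of retinoic acid (RA) signalling, chosen by their symbols from the 25239 gene symbols counted in E14.5 mouse fetal ovaries. They were the enzyme genes *Aldh1a1*, *Aldh1a2*, *Aldh1a3*, *Cyp26a1* and *Cyp26b1*, the receptor genes *Rara*, *Rarb* and *Rarg*, and the binding protein genes *Crabp1* and *Crabp2*. All 10 were in the count files, and 9 of them were among the 14249 genes that passed the filter on low counts and were tested. *Cyp26a1* did not pass it.

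Control ovaries were *Bmpr1a fl/fl*, and *Bmpr1a*-cKO ovaries were *Bmpr1a fl/fl; Oct4-Cre Cre/WT*, all from females on a C57BL/6 background, with 4 libraries of each genotype. *Bmpr1a* encodes a type I receptor for bone morphogenetic proteins (BMPs). The dams carrying embryos of both genotypes had been given 1 mg of 4-hydroxytamoxifen and 0.5 mg of progesterone on each of 3 days, at 9.5 dpc, 10.5 dpc and 11.5 dpc, so the control embryos met the drug as well. The Cre is a tamoxifen-dependent form driven by *Oct4*, intended to delete *Bmpr1a* in germ cells alone, and the somatic cells keep the receptor. Each library pooled 2 ovary pairs, drawn from 6 litters that are not named per library, and p-values measure the spread between these pools.

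RA is made from vitamin A. Retinol is first oxidised to retinal, and the ALDH1A enzymes then turn retinal into RA. CYP26 enzymes destroy RA, CRABP proteins carry it in the cytoplasm, and RAR receptors bind it in the nucleus, as partners of RXR receptors, at repeated DNA half-sites. In the fetal gonad RA is known as an inducer of *Stra8* in germ cells at the entry to meiosis, and CYP26B1 as the enzyme that keeps RA low in the fetal testis. According to the authors, the need for RA in female germ cell meiosis has long been debated. The comparison asked how these genes stood in whole ovaries whose germ cells had lost a BMP receptor.

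Expression is given as CPM, the normalised read count after TMM scaling, and libraries held between 8562961 and 15365052 counts in all. Log2FC is the log2 fold change of *Bmpr1a*-cKO over control, and FDR is the Benjamini-Hochberg adjusted p of the edgeR quasi-likelihood test over all genes tested. A gene was said to rise or fall at an FDR below 0.05, and was a differentially expressed gene (DEG) if its absolute Log2FC was also above 0.5. *Bmpr1a* itself had 199 to 237 CPM in the control and 185 to 209 CPM in the *Bmpr1a*-cKO libraries, with a Log2FC of -0.16 (FDR = 0.0692 by edgeR). Counts over the whole gene in whole ovaries include the somatic cells and any transcript left outside the deleted part, so they do not check the deletion. *Foxl2*, which defines pregranulosa cells, lay at 72.9 to 122 CPM over the 8 libraries, and *Amh*, made by Sertoli cells of the testis, at 0.238 to 1.5 CPM. The other genes listed as Sertoli markers were not all scarce. *Sox9* lay at 6.28 to 9.83 CPM and *Aard* at 11.6 to 17.3 CPM, while *Dhh*, *Ptgds* and *Cst9* lay at 0.119 to 1.40 CPM.

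Both *Rarb* and *Cyp26a1* carry in their promoters the type of repeat that RAR and RXR bind, known as DR5, a pair of half-sites on the same strand with 5 bases between them. It is shown because these genes are textbook readouts of RA. The 120 bases before a RefSeq start of each gene follow, 5′ to 3′ on the strand of the gene, from RefSeq on GRCm38.p6, with the DR5 in capitals. The *Rarb* window is chr14:16575477-16575596 on the minus strand, and the *Cyp26a1* window is chr19:37697688-37697807 on the plus strand. GENCODE vM21 places *Rarb* at 16430839 to 16819156, so its window lies before a start inside the gene. Counts over the whole of *Rarb* are not a readout of this promoter alone.
Rarb: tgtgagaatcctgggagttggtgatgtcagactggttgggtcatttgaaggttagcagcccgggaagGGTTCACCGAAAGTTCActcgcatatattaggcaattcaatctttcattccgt
Cyp26a1: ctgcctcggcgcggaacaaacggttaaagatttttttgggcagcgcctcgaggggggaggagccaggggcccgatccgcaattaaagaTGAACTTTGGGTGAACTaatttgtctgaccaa
In *Rarb* the repeat began 53 and ended 37 bases before the start, and in *Cyp26a1* it lay on the opposite strand from 32 to 16 bases before it. Windows from 250 bases before to 50 bases after the start were found for 8 of the 10 genes, 13 promoters in all, and both strands were searched. Each half-site in a repeat could be AGGTCA or the variant AGTTCA, or either of these with a first G. The DR5 was in these 2 promoters and in 0.0974% of all 32851 promoters of this length. The related DR2, with 2 bases between the half-sites, was in none of the 13 and in 0.268% of all promoters. The single half-site AGGTCA, which can form part of either repeat, was in 1 promoter each of *Rara* and *Rarg* and in 16.3% of all promoters, and the promoter of *Stra8* held it 2 times.

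By level per length, the RA-making enzymes *Aldh1a2* and *Aldh1a1* led the 10 genes and the RA-destroying enzymes came last in both genotypes. In control ovaries *Aldh1a2* had 53.1 ± 2.63 and *Aldh1a1* 39.4 ± 2.04 CPM per kb of exonic sequence (SD, n = 4 each). *Crabp1* and *Rara* came next, at 18.8 ± 2.23 and 18.7 ± 1.29 CPM per kb, and their libraries overlapped. They were followed by *Crabp2* at 5.70, *Rarg* at 4.41, *Aldh1a3* at 2.10, *Rarb* at 1.14, *Cyp26b1* at 0.792 and *Cyp26a1* at 0.0779 CPM per kb. Apart from *Crabp1* and *Rara*, the control libraries of neighbours in this order did not overlap. In *Bmpr1a*-cKO ovaries no neighbours overlapped, and *Rara*, at 18 ± 1.13 CPM per kb, stood above *Crabp1*, at 12.2 ± 1.74 CPM per kb; the other genes kept their places. The lengths are all exonic bases of a gene in GENCODE vM21. With the longest coding transcript instead, a choice made after the data were seen, *Aldh1a1* stood above *Aldh1a2* in both genotypes and *Rara* above *Crabp1* in control ovaries as well.

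**Figure D1:**
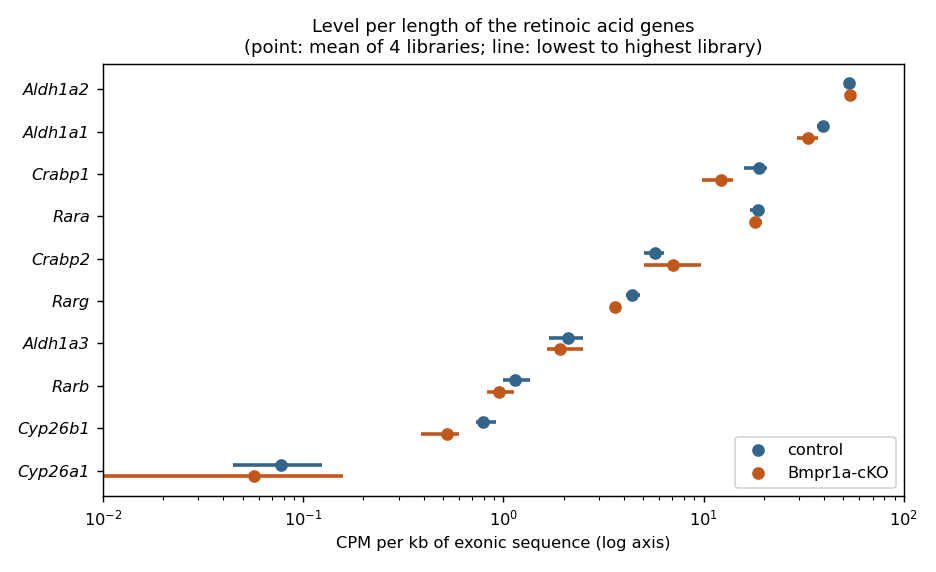
Level of the 10 genes in CPM per kb of exonic sequence on a log axis, with the mean of 4 libraries as a point and the lowest to highest library as a line, in blue for control and orange for *Bmpr1a*-cKO. *Aldh1a2* and *Aldh1a1* sit at the top and *Cyp26b1* and *Cyp26a1* at the bottom in both genotypes. The orange line of *Cyp26a1* runs to the left edge because libraries without a count have no place on a log axis.

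Between the genotypes, 4 of the 9 tested genes fell and 0 rose in *Bmpr1a*-cKO ovaries. *Cyp26b1* and *Crabp1* fell by more than the fold threshold and were DEGs, while *Aldh1a1* and *Rarg* fell by less. *Aldh1a2*, the RA-making enzyme with the highest level by exonic length, was at almost the same level in both genotypes. Among all tested genes 29.8% had an FDR below 0.05, of which 17.3% rose and 12.5% fell, and 10.2% were DEGs, of which 6.11% were upregulated and 4.06% downregulated, all as shares of the genes tested. The libraries of the genotypes did not overlap for 3 of the 9 genes and for 27.9% of all genes (11.7% with *Bmpr1a*-cKO lower). The median Log2FC was -0.25 over the 9 genes and -0.0042 over all genes.

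**Figure D2:**
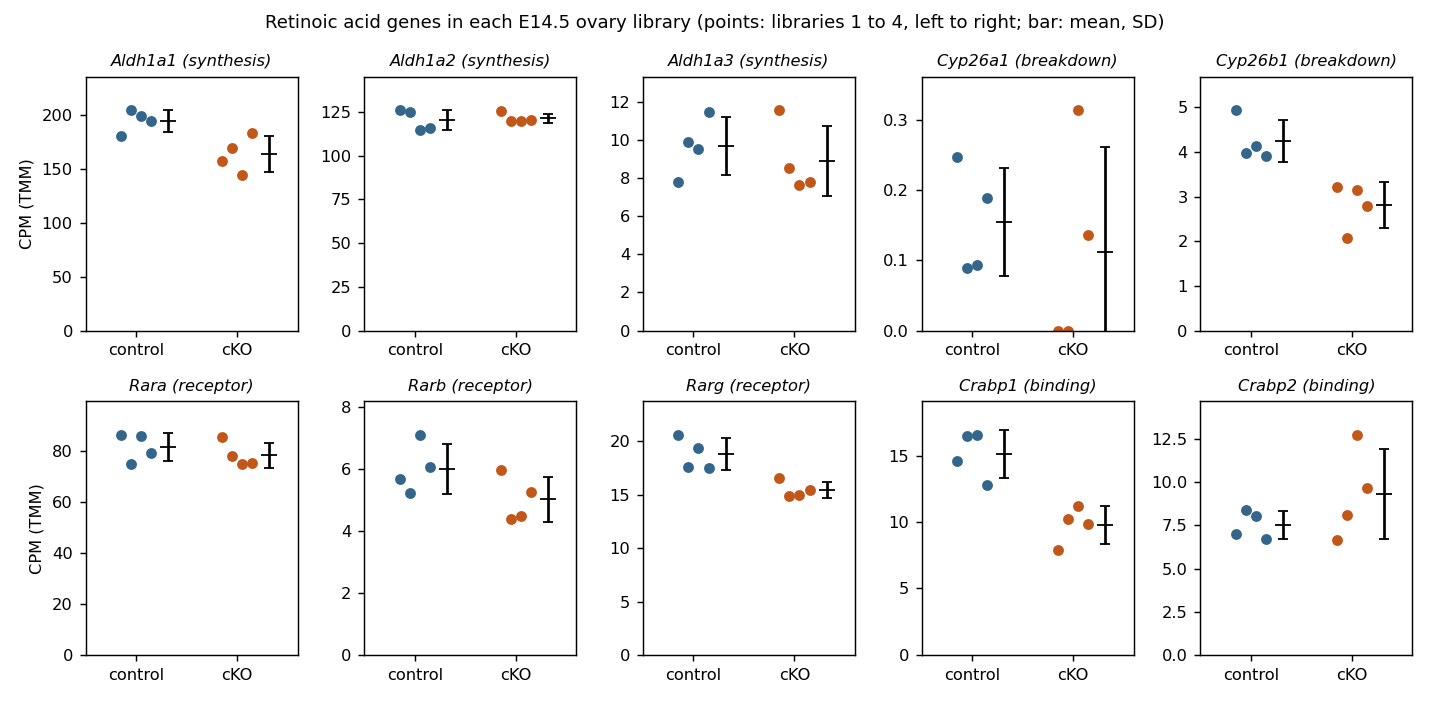
CPM of each of the 10 genes in every library, with control libraries in blue and *Bmpr1a*-cKO libraries in orange, libraries 1 to 4 from left to right, and the mean with its SD in black; each axis starts at 0, where an SD bar that would go below it ends. For *Cyp26b1*, *Rarg* and *Crabp1* all 4 *Bmpr1a*-cKO libraries lie below all 4 control libraries, and *Cyp26a1* is drawn from at most 3 counts per library.

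Of the synthesis enzymes, *Aldh1a1* lies on chromosome 19 at 20492715 to 20643465 (mm10, as for all positions here). Its control libraries had 181, 205, 199 and 194 CPM. In the *Bmpr1a*-cKO libraries it had 158, 169.7, 144 and 184 CPM. The highest *Bmpr1a*-cKO library lay just inside the control range, and the other 3 lay below it. The means were 195 ± 10.1 and 164 ± 16.9 CPM (SD, n = 4 each), and *Aldh1a1* fell by 0.25 on the log2 scale (95% interval -0.40 to -0.092, FDR = 0.0183 by edgeR). Without *Bmpr1a*-cKO library 3 its FDR was 0.0712 by edgeR. *C730002L08Rik* and *Gm6684* overlap it on the opposite strand.

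*Aldh1a2*, on chromosome 9 from 71215789 to 71296243, encodes the enzyme that supplies RA in much of the early embryo. It had 126, 125, 114 and 116 CPM in control and 125, 119.7, 119.97 and 121 CPM in *Bmpr1a*-cKO libraries. The *Bmpr1a*-cKO libraries lay within the range of the control libraries. Its Log2FC was 0.012 with a 95% interval of -0.11 to 0.13 (FDR = 0.895 by edgeR), so the libraries leave room for a change of that size in either direction. *Gm48124* overlaps it on the opposite strand. Its sign turned with the scaling of the libraries.

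*Aldh1a3*, on chromosome 7 from 66390890 to 66427517, encodes the third enzyme of this family. Its control libraries had 7.81, 9.92, 9.55 and 11.5 CPM and its *Bmpr1a*-cKO libraries 11.6, 8.55, 7.64 and 7.78 CPM. The groups overlapped throughout, with the single highest value in *Bmpr1a*-cKO library 1, and the Log2FC was -0.15 (95% interval -0.47 to 0.17, FDR = 0.496 by edgeR). The ratio of *Aldh1a1* to *Aldh1a2* CPM, in which the library scaling cancels, was 1.44 to 1.74 over the control libraries and 1.20 to 1.52 over the *Bmpr1a*-cKO libraries, so the genotypes overlapped. This ratio and those of the binding proteins and receptors were chosen after the values were seen, and are given without a test.

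Both breakdown enzymes were scarce. *Cyp26b1*, on chromosome 6 from 84571414 to 84593908, had 4.93, 3.98, 4.12 and 3.91 CPM in the control libraries. Its *Bmpr1a*-cKO libraries had 3.22, 2.08, 3.14 and 2.80 CPM. All 4 lay below the lowest control library, on 27 to 62 counts per library. *Cyp26b1* was 1.53-fold lower, with a Log2FC of -0.61 (95% interval -1.01 to -0.22, FDR = 0.0205 by edgeR). Its FDR by edgeR was 0.0708 without control library 1, and 0.0817 without *Bmpr1a*-cKO library 2.

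*Cyp26a1*, on chromosome 19 from 37697798 to 37701536, encodes the other main enzyme of RA breakdown and is induced by RA. It had 3, 1, 1 and 3 counts in the control libraries and 0, 0, 3 and 2 counts in the *Bmpr1a*-cKO libraries. No library was above 3 counts, which is the limit that a count of 0 allows and corresponds to 0.189 to 0.358 CPM depending on the library. No fold change is given, and a difference was not detectable at this depth.

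Of the receptors, *Rara*, on chromosome 11 from 98927818 to 98974942, had the highest level per length. It was at 86.7, 74.9, 86.1 and 79.5 CPM in control and 85.6, 78.2, 74.95 and 75.5 CPM in *Bmpr1a*-cKO libraries. The groups overlapped, with a Log2FC of -0.059 (95% interval -0.20 to 0.085, FDR = 0.553 by edgeR). GENCODE vM21 has *Gm22061* overlapping *Rara* in the same orientation, and how reads shared by the pair were assigned is not known.

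*Rarg*, on chromosome 15 from 102234938 to 102257517, fell from 20.6, 17.6, 19.4 and 17.5 CPM in the control libraries to 16.6, 14.9, 14.97 and 15.4 CPM in the *Bmpr1a*-cKO libraries. The groups did not overlap, although the gap between them was narrow. Its Log2FC was -0.28 (95% interval -0.47 to -0.091, FDR = 0.0270 by edgeR). In the 8 fits that left out 1 library, *Rarg* stayed below the threshold in 3, and its FDR reached 0.0916 without control library 1, 0.0535 without control library 3, and 0.0846, 0.0689 and 0.0574 without *Bmpr1a*-cKO libraries 2, 3 and 4. The ratio of *Rarg* to *Rara* CPM was 0.220 to 0.238 over the control and 0.190 to 0.204 over the *Bmpr1a*-cKO libraries, and these ranges did not overlap.

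*Rarb*, on chromosome 14 from 16430839 to 16819156, is the receptor gene that carries the DR5 printed above, before a start inside the gene. The counts of *Rarb* cover the whole gene, not only transcripts from that start. Its control libraries had 5.67, 5.22, 7.12 and 6.06 CPM, and its *Bmpr1a*-cKO libraries had 5.96, 4.39, 4.50 and 5.25 CPM. The groups overlapped, with a Log2FC of -0.27 (95% interval -0.59 to 0.061, FDR = 0.216 by edgeR), so that a fall as large as that of *Rarg* lies inside the interval. *Top2b* and *Gm48162* overlap *Rarb* on the opposite strand. The libraries were strand-specific, but whether the counts used the strand is not stated in the sources used here.

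The binding protein genes stood in different positions. *Crabp1*, on chromosome 9 from 54764748 to 54773110, fell from 14.6, 16.5, 16.6 and 12.8 CPM in the control libraries to 7.87, 10.2, 11.2 and 9.83 CPM in the *Bmpr1a*-cKO libraries. The groups did not overlap. It was 1.53-fold lower, with a Log2FC of -0.61 (95% interval -0.87 to -0.35), and its FDR of 0.00159 by edgeR was the lowest of the 9 genes. With any 1 library left out, its Log2FC ran from -0.70 to -0.54 and it remained a DEG.

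*Crabp2*, on chromosome 3 from 87948666 to 87953376, encodes the protein that hands RA to the receptors in the nucleus. It had 6.99, 8.41, 8.05 and 6.69 CPM in control and 6.68, 8.11, 12.8 and 9.69 CPM in *Bmpr1a*-cKO libraries. Libraries 3 and 4 of *Bmpr1a*-cKO were above all control libraries and libraries 1 and 2 were not, with a Log2FC of 0.31 (95% interval -0.046 to 0.67, FDR = 0.183 by edgeR). Without *Bmpr1a*-cKO library 1, *Crabp2* passed, with a Log2FC of 0.42 and an FDR of 0.0465. The ratio of *Crabp1* to *Crabp2* CPM was 2.08, 1.96, 2.06 and 1.92 in the control libraries and 1.18, 1.26, 0.877 and 1.01 in the *Bmpr1a*-cKO libraries, and the lowest control library was above the highest *Bmpr1a*-cKO library.

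**Figure D3:**
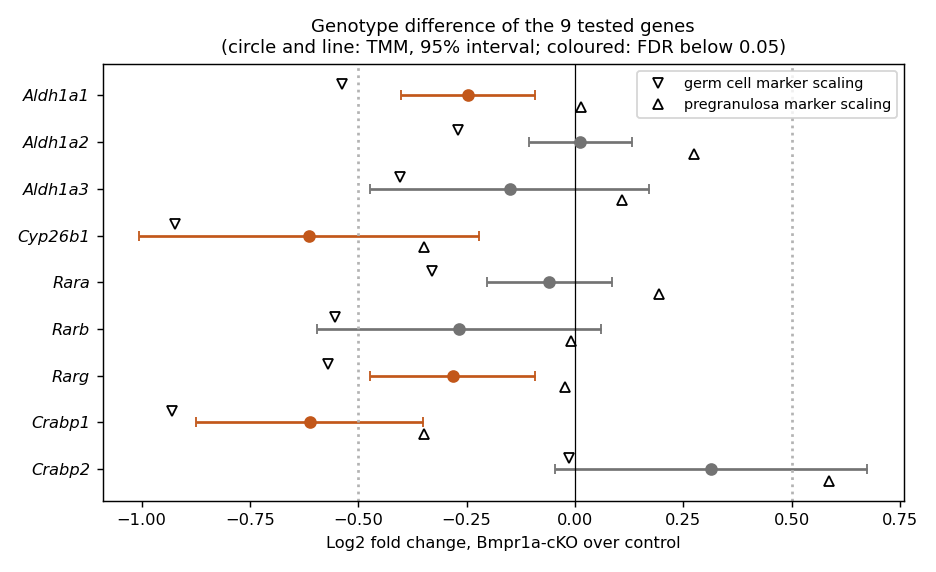
Log2FC of *Bmpr1a*-cKO over control for the 9 tested genes, as circles with 95% intervals under TMM scaling, coloured where the FDR was below 0.05. Dotted lines mark the DEG threshold, and open triangles give the Log2FC when libraries were scaled to germ cell markers (pointing down) or to pregranulosa markers (pointing up); each gene moves left under the former and right under the latter.

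The values come from whole ovaries, in which fewer cells of a type and less RNA per cell cannot be told apart. Of 9 pregranulosa markers, 7 fell and 0 rose, their median Log2FC was -0.38, and their summed level was 1602 to 1865 CPM in control and 1366 to 1593 CPM in *Bmpr1a*-cKO libraries. *Foxl2* fell from 118 ± 3.93 to 79.4 ± 7.30 CPM (SD, n = 4 each; Log2FC of -0.57, FDR = 1.80e-05 by edgeR), and *Rspo1*, which encodes an ovarian WNT activator, had a Log2FC of -0.48. *Kitl* and *Lhx9*, genes of the supporting and early gonadal lineages, had a Log2FC of -0.13 and -0.0029 and did not pass. When libraries were scaled to the pregranulosa markers, an alternative added after the data were seen, the median Log2FC of all genes moved to 0.26. The Log2FC was then -0.35 for *Cyp26b1* (FDR = 0.167), -0.35 for *Crabp1* (FDR = 0.0606), -0.022 for *Rarg* (FDR = 0.889) and 0.013 for *Aldh1a1* (FDR = 0.923, all by edgeR). Under it none of the 4 genes passed, while *Aldh1a2* and *Crabp2* did, at 0.27 (FDR = 0.00985 by edgeR) and 0.59 (FDR = 0.0177 by edgeR). Of all 14249 tested genes, 6630 passed under this scaling.

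Of 7 mesonephros markers, 2 fell and 0 rose, and their summed level was 141 to 173 CPM in control and 110.2 to 132 CPM in *Bmpr1a*-cKO libraries. Most of this sum was *Emx2*, at 112 to 140 CPM in control and 89.3 to 105 CPM in *Bmpr1a*-cKO libraries, so the sum mainly follows that gene. The 2 were *Emx2*, which the gonadal epithelium also expresses (Log2FC of -0.26), and *Gata3* (Log2FC of -0.56), while the tubule and duct markers *Pax2* and *Cdh16* lay at 0.628 to 1.91 CPM in all libraries and did not pass. Nor did *Pax8*, at 9.63 to 17.7 CPM (Log2FC of -0.27, FDR = 0.195 by edgeR), *Lhx1*, at 0.596 to 2.44 CPM with the largest fitted difference of the list (Log2FC of -0.73, FDR = 0.115 by edgeR), or *Hoxd11* (Log2FC of 0.061). The germ cell list moved in both directions. Of its 8 tested genes, 3 rose (*Dazl*, *Dnd1* and *Dppa3*) and 2 fell (*Mael* and *Tex101*), and *Ddx4* had a Log2FC of 0.11 (FDR = 0.561 by edgeR). Scaling to this list moved the median Log2FC of all genes to -0.30, and *Cyp26b1*, *Crabp1*, *Aldh1a1* and *Rarg* were then all DEGs. This scaling leans on *Dazl*, which had the highest CPM of the list and rose itself. *Dazl* lay at 282 to 381 CPM in control and 382 to 615 CPM in *Bmpr1a*-cKO libraries. Macrophage markers were higher, with 4 of 6 tested genes rising and a summed level of 33.5 to 42.0 CPM in control and 44.8 to 56.5 CPM in *Bmpr1a*-cKO libraries. None of the 9 stroma or 6 endothelium markers passed. In each of the remaining lists 1 marker passed, namely *Sox9* of 5 tested Sertoli markers, *Hbb-y* of 3 erythroid and *Hsd3b1* of 4 steroidogenic markers, which fell, and *Lrrn4* of 5 mesothelium markers, which rose. The parts that pregranulosa, mesonephric, germ and macrophage cells and those of the other lists had in the falls of *Cyp26b1*, *Crabp1*, *Aldh1a1* and *Rarg* were not tested. Neither marker scaling is such a test. The pregranulosa markers fell themselves, *Dazl* of the germ cell list rose itself, and each scaling moved all genes.

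**Figure D4:**
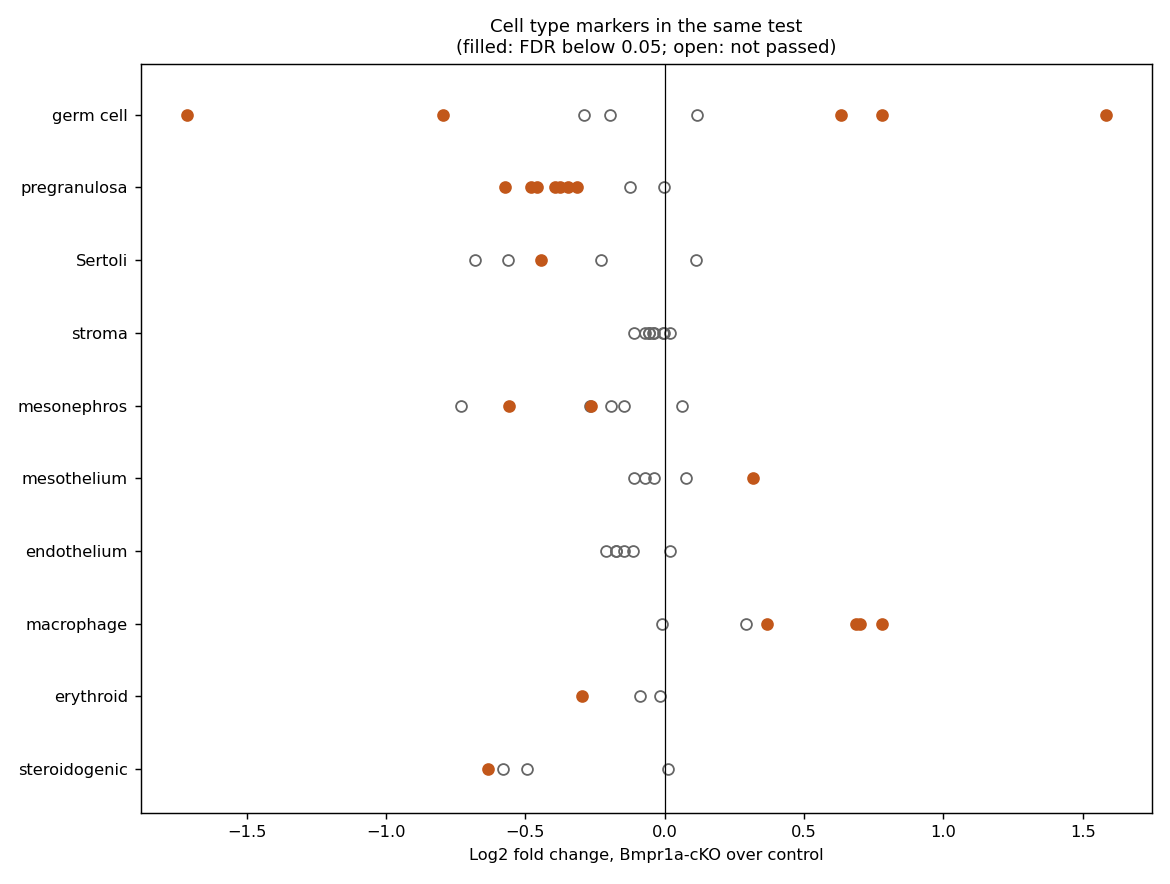
Log2FC of *Bmpr1a*-cKO over control for the tested markers of each cell type, 1 circle per gene, filled where the FDR was below 0.05 and open otherwise. The 9 pregranulosa markers are all at or left of 0, the germ cell markers spread to both sides, and the stroma markers sit close to 0.

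The genes whose profile over the 8 libraries was closest to each DEG were found by the root mean square difference of log2 CPM, each gene centred on its own mean. For *Cyp26b1* they were *Gprc5a* (0.0782), *Ap5b1* (0.101) and *Cfap410* (0.11). For *Crabp1* they were *Gata3* (0.0917), which is on the mesonephros list, *Akr1cl* (0.0966) and *Hoxa5* (0.0998). Likeness over 8 libraries includes the genotype difference itself, and these genes had a Log2FC of -0.61 to -0.49.

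Among 40 other genes of the RA pathway, 32 were tested, 3 fell, 1 rose and 28 did not pass; their median Log2FC was -0.049. *Rxrg*, which encodes an RXR partner of the RARs, rose. It had 0.329, 0.708, 0.656 and 0.505 CPM in control and 1.07, 1.12, 1.36 and 1.43 CPM in *Bmpr1a*-cKO libraries, without overlap, on 4 to 21 counts per library. *Rxrg* passed the filter on low counts only through its *Bmpr1a*-cKO libraries, where it is high. The test and the lack of overlap are therefore given as description only. Its Log2FC was 1.20 (standard error 0.31, FDR = 0.00862 by edgeR), and *Rxra*, at 100.3 ± 4.68 and 102 ± 10.3 CPM (SD, n = 4 each), had a Log2FC of 0.021 (FDR = 0.855 by edgeR). *Ncoa1*, a coactivator of nuclear receptors, fell from 97.8 ± 6.74 to 71.7 ± 6.82 CPM without overlap (Log2FC of -0.45, FDR = 0.000339 by edgeR). Of the other 5 coactivators none passed, and *Crebbp*, with the highest control CPM of these, had a Log2FC of 0.14.

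*Dgat1*, which can esterify retinol, fell with a Log2FC of -0.36 (FDR = 0.0127 by edgeR), and *Dhrs3*, which returns retinal to retinol and is induced by RA, with a Log2FC of -0.23 (FDR = 0.0322 by edgeR). With control library 1 or 4, or *Bmpr1a*-cKO library 2, 3 or 4, left out, the FDR of *Dhrs3* was 0.0692 to 0.112 by edgeR. Scaled to the pregranulosa markers, neither *Dgat1*, *Dhrs3* nor *Ncoa1* passed (FDR of 0.548, 0.846 and 0.0735 by edgeR), and scaled to the germ cell markers neither *Rxrg* nor *Dhrs3* did (FDR of 0.12 and 0.055 by edgeR). *Cyp1b1*, a cytochrome that can also oxidise retinoids, had 83.3 ± 5.75 and 80.7 ± 0.906 CPM (SD, n = 4 each) and did not pass. None of the 5 corepressors passed, with *Ncor1* at a Log2FC of 0.010. Nor did *Ppard* (-0.072) or the related receptor *Nr2c2* (-0.051). The 8 genes below the filter were *Rbp2*, *Rbp7*, *Lrat*, *Bco1*, *Dhrs9*, *Adh4*, *Adh7* and *Cyp26c1*. Of these, *Adh4*, *Dhrs9* and *Bco1*, singled out after their values were seen, were higher in *Bmpr1a*-cKO libraries without overlap. *Adh4*, a retinol-oxidising alcohol dehydrogenase, had 0 counts in all control libraries and 7, 8, 7 and 12 counts in the *Bmpr1a*-cKO libraries. *Dhrs9* had 0 counts in all control libraries and 1, 5, 3 and 2 counts in the *Bmpr1a*-cKO libraries. *Bco1* had 0, 1, 0 and 0 counts in control and 2, 5, 2 and 3 counts in *Bmpr1a*-cKO libraries. Against 3 counts per control library *Adh4* was at least 3.03-fold higher, while *Dhrs9* and *Bco1* were at 0.958 and 1.04 times that limit. These values are given as description only, because the genes were picked by them and are tested only without the filter.

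**Figure D5:**
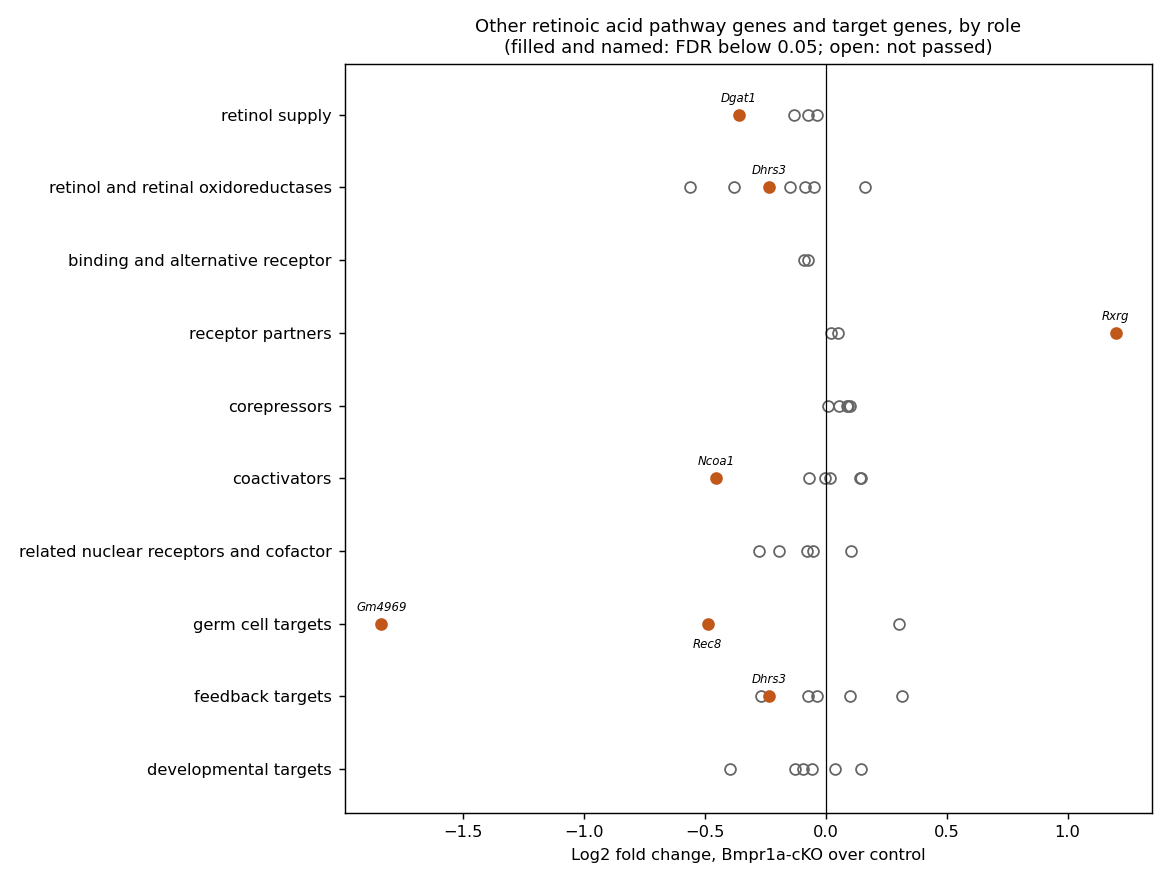
Log2FC of *Bmpr1a*-cKO over control for the tested genes of the wider RA pathway and for RA target genes, by role, with filled and named circles where the FDR was below 0.05. *Rxrg* (1.20), which passed the filter only through its *Bmpr1a*-cKO libraries, lies alone on the right. *Gm4969* (-1.84) is furthest left, and most genes of both lists lie near 0.

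Of 20 genes listed as RA targets from work in various tissues, which include *Rarb*, *Crabp2* and *Cyp26a1*, 15 were tested, 3 fell, 0 rose and 12 did not pass; their median Log2FC was -0.072. The 3 were *Gm4969*, which is *Meiosin*, the partner of *Stra8*, and whose direct control by RA in female germ cells is in doubt (-1.84, FDR = 2.52e-06 by edgeR), *Rec8*, a meiotic cohesin subunit (-0.49, FDR = 0.000288 by edgeR), and *Dhrs3*. *Stra8* itself was at 105 ± 10.2 and 129 ± 28.3 CPM (SD, n = 4 each) and did not pass (Log2FC of 0.30, FDR = 0.0731 by edgeR). It passed without control library 3 (FDR = 0.0466 by edgeR) or *Bmpr1a*-cKO library 1 (FDR = 0.00315 by edgeR), without the filter (FDR = 0.0405 by edgeR) and when scaled to the pregranulosa markers (0.57, FDR = 0.00551 by edgeR), under which *Rec8* did not (-0.23, FDR = 0.0861 by edgeR). Of the 6 tested genes of RA feedback, which include *Rarb* and *Crabp2*, *Dhrs3* alone passed. *Nrip1*, a corepressor that RA induces, had 117 ± 5.71 and 125 ± 10.2 CPM (SD, n = 4 each). None of the 6 tested developmental targets passed, and *Tgm2*, which encodes a transglutaminase and had the highest control CPM among them, had 109.6 ± 6.89 and 101 ± 16.2 CPM (SD, n = 4 each).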

How the data were processed

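RNA-Seq counts from 4 control and 4 *Bmpr1a*-cKO pools of E14.5 ovaries were used. Per the labels and methods, the authors trimmed reads with Trimmomatic 0.39, checked them with FastQC 0.11.9, mapped them to mm10 with STAR 2.5.2, and deposited whole-number counts per gene symbol without normalization. Their annotation and strand setting are not given in the sources used here. The authors also deposited a table of normalized signal, of which only the gene set was used, as an alternative filter.

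In R 4.3.3, genes were kept with filterByExpr of edgeR 4.0.16, scaled by TMM and tested with the quasi-likelihood F test (genotype as the factor, two-sided). The procedure was tested on simulated counts with planted absolute log2 changes of 1 and 1.5. It called 74 of 85 and 110 of 111 of these as DEGs, and 8 of 13939 unchanged genes. Changes as small as those of the 4 genes that fell were not simulated. DESeq2 1.42.0 and limma 3.58.1 (voom) were alternatives, with other scalings, filters, the replicate number as a block, and each library left out.

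Gene positions and lengths came from GENCODE vM21. The 10 genes and the lists were chosen with earlier results of these data known. Named genes are the 10, every list gene at an FDR below 0.05 and, per role, the one with the highest control CPM that did not pass. Of the marker lists, the germ cell and mesonephros lists and those in which most tested genes passed were to be named. For each DEG, the 3 genes closest in profile are given. A single gene that this rule names is not reported here. The germ cell marker *Gcna* was not matched in the files used. Floors cover counting error only.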

Additional observations from a re-analysis of the deposited data

Results flagged for a closer look

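Of 20 groups examined (10 genes in each genotype), 1 held a library that stood apart from the other 3 by Dixon's criterion. *Aldh1a2* had 125 CPM in *Bmpr1a*-cKO library 1, and the nearest of the others had 121 CPM. Chance alone gives about 1 such group in 20, and the value lay inside the range of the control libraries.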

How the results depend on the processing

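Of the 9 tested genes 4 passed, and with 1 library left out the number ran from 2 to 5; for DEGs it was 2 and ran from 1 to 2, for the other pathway genes 4 and ran from 3 to 7, for the target genes 3 and ran from 2 to 6, and for the markers 22 and ran from 17 to 27. The 2 came without control library 1 or *Bmpr1a*-cKO library 2 or 3, the single DEG without control library 1 or *Bmpr1a*-cKO library 2, and the 7 pathway and 6 target genes without *Bmpr1a*-cKO library 1. Without *Bmpr1a*-cKO library 1, 5038 of all 14427 tested genes passed. The fit without control library 1 passed 3338 of all 14321 tested genes. Those without *Bmpr1a*-cKO library 2 or 3 passed 3101 of 14324 and 3351 of 14409, so the lower counts came with fewer calls over all genes. Germ cell marker scaling gave 4 DEGs and 2 other pathway genes. Of all 14249 tested genes, 4242 had an FDR below 0.05 in the main fit and 2067 under this scaling. Pregranulosa marker scaling, added after the data were seen, gave 2 genes past the FDR, 1 DEG, 15 other pathway genes and 6 target genes. Under it 6630 of all 14249 tested genes passed, so the higher counts came with more calls over all genes. Without a filter 7 other pathway genes passed, and 4417 of all 20169 genes. At an absolute Log2FC above 1 there were 0 DEGs among the 10 genes by edgeR, DESeq2 and limma-voom, and of the 4 genes with an unadjusted p below 0.05 by edgeR 0 were past this fold. The Log2FC changed sign for *Aldh1a2* with upper-quartile scaling (-0.021), library size only (-0.040) and germ cell marker scaling (-0.27), and ran from -0.017 to 0.035 with 1 library left out; for *Crabp2* with germ cell marker scaling (-0.013); and with pregranulosa marker scaling for *Aldh1a1* (0.013), *Aldh1a3* (0.11) and *Rara* (0.20). The cause was not tested. *Aldh1a1* lost its call without *Bmpr1a*-cKO library 3 (FDR = 0.0712 by edgeR). With the replicate number as a block, 4 of the 10 genes passed and 2 were DEGs, with 5 other pathway, 4 target and 23 marker genes, with *Stra8* (FDR = 0.0147 by edgeR) and *Med1* (FDR = 0.0471 by edgeR) among them. Same-numbered libraries correlated in their deviations at 0.198, 0.161, 0.108 and -0.0871. Of these, 1 is under the 0.1 asked of every pair, so the numbers were not taken to pair the libraries. Libraries 1 and 2 correlated best with their own number in both genotypes, and library 4 in neither. *Bmpr1a*-cKO library 3 correlated best with control library 3, but control library 3 with *Bmpr1a*-cKO library 4. Depth limits *Cyp26a1*.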
